A study of Mus musculus with 8 samples.

Results

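The data describe what 5 days of PE did to gene expression in hearts that carry the S105A change in GATA4. The comparison is between 4 of the 8 arrays of the study, 2 from PE-treated S105A hearts (arrays 7 and 8) and 2 from untreated S105A hearts (arrays 5 and 6). It covers 19938 genes, each read by 1 probe set that is annotated with exactly 1 symbol and has the highest mean over the 8 arrays where a gene has several. All mice were 9 weeks old and on a C57Bl6 background. The S105A mice were homozygous for a serine-to-alanine substitution (S105A) in GATA4, and PE was infused subcutaneously from an osmotic pump, 100 mg per kg each day. The other 4 arrays came from wild-type (WT) hearts without PE (arrays 1 and 2) and with the same PE treatment (arrays 3 and 4). They entered the estimate of spread and 1 comparison of PE effects between genotypes. Each array held the RNA of 1 animal, so the replicates are animals.

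GATA4 is a zinc-finger transcription factor that binds short DNA motifs around the letters GATA and, with partners such as MEF2 and SRF, drives genes of heart muscle. The substituted serine lies in its activation region and is a site that the kinase ERK phosphorylates after adrenergic stimulation. Adrenergic agonists load the heart, and cardiac muscle cells answer by growing and by taking up genes of the fetal heart again, such as the slow myosin heavy chain and the natriuretic peptides, while fibroblasts and macrophages of the tissue remodel the matrix. The labels spell PE out as pseudoephedrine. Another adrenergic agonist, phenylephrine, shares the abbreviation, and the labels do not settle which was given.

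The values were log2 expression values, with array medians between 6.18 and 6.23. The number of arrays limits the precision, since each S105A group held 2. The tissue field names the ventricle and the titles name the whole heart. The 10 measured cardiomyocyte markers were high and even, with list means of 13.10 and 13.08 in the untreated and 13.06 and 13.07 in the PE arrays. The 8 measured markers of atrial myocytes ranged from 4.51 to 13.76 over the 4 arrays. Sln (4.51 to 4.59), Bmp10 (4.59 to 4.79) and Myl7 (5.66 to 6.02) lay toward the low end, and Myl4 (8.29 to 8.92) and Nppa (10.73 to 13.76) above them, and levels of different probe sets cannot be compared directly. The titles call the control animals untreated, and the protocol names saline in place of PE. Gata4 mRNA had log2 values of 10.07 and 9.96 in the untreated and 10.02 and 10.09 in the PE arrays. The arrays overlapped, and the probe set cannot show a point substitution, which makes these values no check of the genotype.

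The genes with the largest differences were higher in both PE hearts, and array 7 lay farther from the untreated arrays than array 8. Measured from the mean of arrays 5 and 6, 1107 genes were at least 1.5-fold higher in array 7 and 187 in array 8, and 247 and 30 genes were at least 1.5-fold lower. The untreated arrays themselves differed by that much in 67 genes. The SD of the differences over all genes was 0.35 for array 7, 0.18 for array 8 and 0.15 between arrays 5 and 6. Array 7 therefore stood apart from the other 3 arrays, and the main results are given for each PE array.

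No gene passed an adjusted p of 0.05 in limma's moderated test (0 of 19938, 0%). Fits without a single array, or without arrays 3 and 7 (a choice made after seeing the data), leave 1 array in at least 1 group. That group then adds nothing to the estimate of spread, so no count of passing genes is taken from these fits. With all arrays, an unadjusted p under 0.05 was reached by 1169 genes (5.86%), 616 higher (3.09%) and 553 lower (2.77%) with PE. With a limit of 0.01 and a difference of at least 1.5-fold there were 53 higher (0.266%) and 9 lower genes (0.0451%). In 4035 genes (20.2%) arrays 7 and 8 both exceeded arrays 5 and 6, and in 5028 (25.2%) both lay below them. Both PE arrays were at least 1.5-fold above the untreated mean in 166 genes (0.833%) and at least 1.5-fold below it in 15 (0.0752%). The 166 genes were 15.0% of those past that fold in array 7 and 88.8% of those past it in array 8. Both differences use the same untreated mean, so the overlap is a description. At a fold of 2 or more in both arrays there were 39 higher and 5 lower genes, and at a fold of 4 or more 6 higher and 0 lower.

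The differences of the 166 genes in array 8 were smaller than in array 7 in 162 cases. On the log2 scale, the ratio of the array 8 to the array 7 difference had a median of 0.488 (quartiles 0.411 and 0.593). Of the 166, 122 had an unadjusted p under 0.05 (5.86% of all genes do). At least 1 of the 44 gene lists used here, which hold 671 of the 19938 genes, includes 63 of the 166. Both counts are descriptions, since the 166 were picked for their differences. The lists were chosen with earlier results of these data known, so the shares of list members given below are descriptions too. The 15 lower genes were more even, with a median ratio of 0.871.

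**Figure D1:**
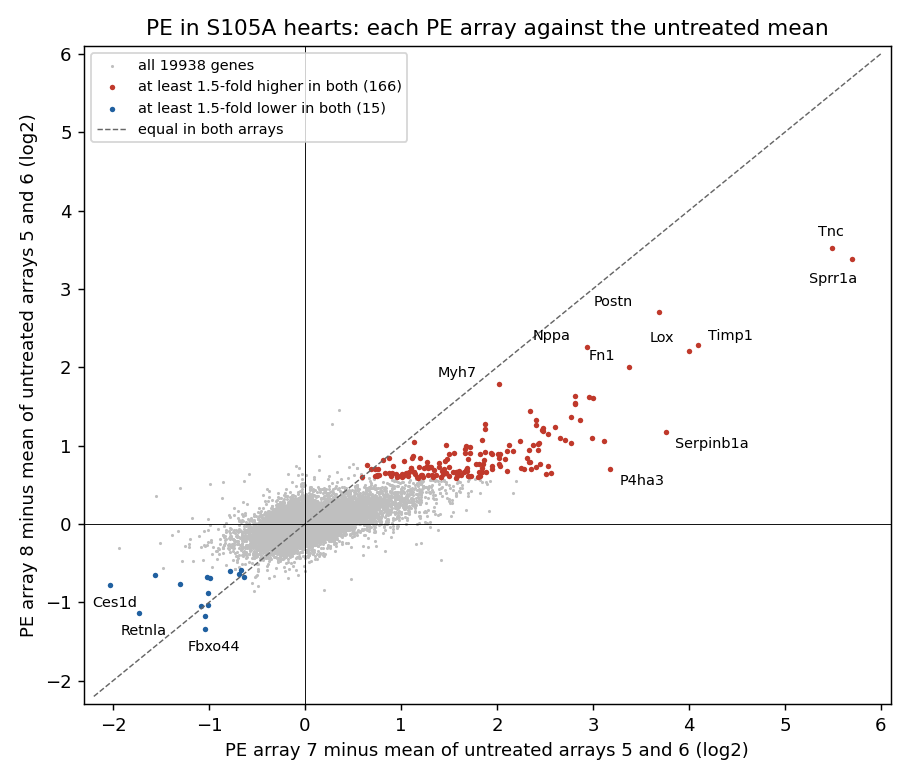
Each of the 19938 genes by its log2 difference from the mean of untreated arrays 5 and 6, in PE array 7 (horizontal axis) and PE array 8 (vertical axis), with 166 genes at least 1.5-fold higher in both in red and 15 at least 1.5-fold lower in both in blue. Most red points lie below the dashed line of equal differences, as 162 of the 166 differed more in array 7, while Myh7 lies close to it.

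Fetal and stretch genes of heart muscle were higher in both PE hearts, and they include the gene with the smallest p of the comparison. Myh7 encodes the slow beta myosin heavy chain of the fetal heart. Its log2 values were 8.75 and 8.63 in the untreated arrays and 10.71 and 10.48 in the PE arrays. Arrays 7 and 8 were close to each other and far above both untreated arrays, a log2 difference of 1.91 (3.75-fold, SE 0.17, limma adjusted p = 0.271). Nppa, the atrial natriuretic peptide gene, had values of 10.73 and 10.92 against 13.76 and 13.08, a difference of 2.60 (SE 0.40, 6.06-fold, limma adjusted p = 0.765). Nppb, the brain natriuretic peptide gene, had 10.57 and 10.74 against 12.07 and 11.25, so its array 8 value lay nearer to the untreated arrays than to array 7. Ankrd1, a stretch-responsive sarcomere protein and cofactor, had 12.55 and 12.67 against 13.36 and 13.24, with a difference of 0.69 (SE 0.12). Rcan1, an inhibitor of calcineurin whose own gene responds to calcineurin, had 9.76 and 9.99 against 10.98 and 10.59. Adjusted values are shared by many genes in this method, and 0.765 is also that of Nppb, Ankrd1 and Rcan1.

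Acta1, the skeletal alpha-actin gene that belongs to the same fetal set, overlapped between the groups: 10.38 and 11.35 in the untreated arrays, with array 5 minus array 6 at -0.97, against 11.43 and 11.31. Of the 16 measured genes of this list, 11 lay higher without overlap (68.8%, against 20.2% of all genes), 1 lay lower and 4 overlapped. In array 8 alone, 13 of the 16 lay above both untreated arrays, against 34.8% of all genes. Their median difference was 0.62 in array 7 and 0.41 in array 8, against -0.041 and -0.0026 over all genes. Of the 16, 6 had an unadjusted p under 0.05 (5.86% of all genes do). The lower member was Tnni1, the slow troponin I gene, at 6.06 and 6.07 against 5.78 and 5.94. Myh6, the adult alpha myosin heavy chain, overlapped at 13.59 and 13.50 against 13.44 and 13.52, and its difference of -0.066 became 0.005 after a further quantile normalization.

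Because GATA4 is the altered factor, the 250 bases before the start of 4 of these fetal genes, chosen by name, are shown, read 5′ to 3′ on the gene's strand from RefSeq on mouse build GRCm38.p6. Capitals mark the letters GATA followed by A or G and preceded by A or T, on either strand, which is the site of the GATA factors. The Nppa window is chr4:148000472-148000721 (plus strand), the Nppb window chr4:147985650-147985899 (plus strand), the Ankrd1 window chr19:36119845-36120094 (minus strand) and the Myh7 window chr14:54994550-54994799 (minus strand).
Nppa: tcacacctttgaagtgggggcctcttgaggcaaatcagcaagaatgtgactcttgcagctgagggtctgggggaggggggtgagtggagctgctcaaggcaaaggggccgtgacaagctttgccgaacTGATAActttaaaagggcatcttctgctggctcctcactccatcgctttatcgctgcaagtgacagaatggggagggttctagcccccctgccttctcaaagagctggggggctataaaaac
Nppb: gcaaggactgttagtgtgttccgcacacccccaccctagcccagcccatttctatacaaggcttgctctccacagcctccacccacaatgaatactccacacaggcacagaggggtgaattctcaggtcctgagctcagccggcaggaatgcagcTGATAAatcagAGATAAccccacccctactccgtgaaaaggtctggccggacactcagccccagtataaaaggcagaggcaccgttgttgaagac
Ankrd1: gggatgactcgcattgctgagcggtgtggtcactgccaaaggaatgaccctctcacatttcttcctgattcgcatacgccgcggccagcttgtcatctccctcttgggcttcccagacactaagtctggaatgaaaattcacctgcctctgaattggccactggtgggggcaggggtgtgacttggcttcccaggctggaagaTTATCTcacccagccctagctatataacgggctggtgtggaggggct
Myh7: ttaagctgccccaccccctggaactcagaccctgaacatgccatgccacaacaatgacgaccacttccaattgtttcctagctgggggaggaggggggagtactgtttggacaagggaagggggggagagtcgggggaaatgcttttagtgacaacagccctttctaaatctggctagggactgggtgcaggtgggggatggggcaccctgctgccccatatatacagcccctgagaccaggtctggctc
The matches start at position -122 of Nppa, at -95 and -84 of Nppb and at -47 of Ankrd1, counted back from the gene's start. The Myh7 window has none, so the gene with the smallest p has no such letters in these 250 bases. Such letters are common: 26.5% of the 32851 promoter windows of this length hold at least 1 match, as do 25.7% of the 15562 tested genes with a window. Of the genes at least 1.5-fold higher in both PE arrays, 126 had a window and 33 of them (26.2%) held a match. Of 14 genes described as direct GATA4 targets in the heart, 6 did (Nppa, Nppb, Myh6, Slc8a1, Bcl2l1 and Hand2). A match is a description of the sequence and not a bound site.

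Genes of the extracellular matrix were among those with the largest differences, and Tnc, Postn, Fn1 and Thbs1 differed more in array 7 than in array 8. Tnc, a matrix glycoprotein of injured tissue that is scarce in the resting adult heart, had log2 values of 5.42 and 5.33 in the untreated arrays and 10.87 and 8.89 in the PE arrays. Both PE arrays were far above, with a log2 difference of 5.49 in array 7 and 3.52 in array 8 (mean 4.50, SE 0.65, limma adjusted p = 0.765). Postn, which encodes periostin of activated fibroblasts, had 9.23 and 9.48 against 13.04 and 12.06. Fn1, fibronectin, had 9.36 and 9.43 against 12.77 and 11.39, and Thbs1, thrombospondin, 7.35 and 7.47 against 10.37 and 9.03. The 24 measured matricellular and fibronectin-matrix genes all lay higher without overlap (20.2% of all genes do). An unadjusted p under 0.05 was found for 14 of them (5.86% of all genes). The median difference of the 24 was 1.51 in array 7 and 0.63 in array 8.

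The collagen genes had the same order of the arrays. Col1a1, the main fibrillar collagen chain, had 8.91 and 8.96 against 11.75 and 10.47, and Col3a1, its companion in young scar, 8.53 and 8.64 against 11.00 and 9.85. Their differences were 2.18 (SE 0.63) and 1.83 (SE 0.50). Of the 22 collagen chains, 18 lay higher without overlap (81.8%, against 20.2% of all genes) and 4 overlapped, among them the basement membrane chain Col4a3 at 0.054, and 10 were at least 1.5-fold higher in both arrays (0.833% of all genes). The enzymes that process and crosslink collagen followed: all 18 measured lay higher without overlap. Lox, lysyl oxidase, had 6.72 and 6.44 against 10.59 and 8.79. P4ha1, a collagen prolyl hydroxylase subunit, and Pcolce2, an enhancer of procollagen cleavage, were as high in array 8 as in array 7, with differences of 0.59 and 0.45 for P4ha1 and 0.45 and 0.36 for Pcolce2 (array 8 first).

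Of 17 matrix proteases and inhibitors, 13 lay higher without overlap (76.5%, against 20.2% of all genes). An unadjusted p under 0.05 was found for 6 of the 17 (5.86% of all genes). Timp1, an inhibitor of matrix metalloproteinases, had 6.76 and 6.98 against 10.96 and 9.15, a difference of 3.19 (SE 0.57, 9.11-fold, limma adjusted p = 0.765). Mmp2, a gelatinase, had 10.05 and 9.91 against 11.32 and 10.67, and Adam19, a membrane metalloprotease, 7.96 and 8.35 against 9.17 and 8.79. Of the 10 elastic fibre and microfibril genes, 8 lay higher and 2 lower without overlap (80% and 20%). Mfap5, a microfibril glycoprotein, had 8.62 and 8.83 against 11.54 and 10.27. Sprr1a, a small proline-rich protein known as a stress-induced gene of cardiomyocytes, belonged to no list. At 6.58 and 6.77 against 12.37 and 10.05 it had the largest mean difference of the genes named here (4.54, SE 1.14).

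**Figure D2:**
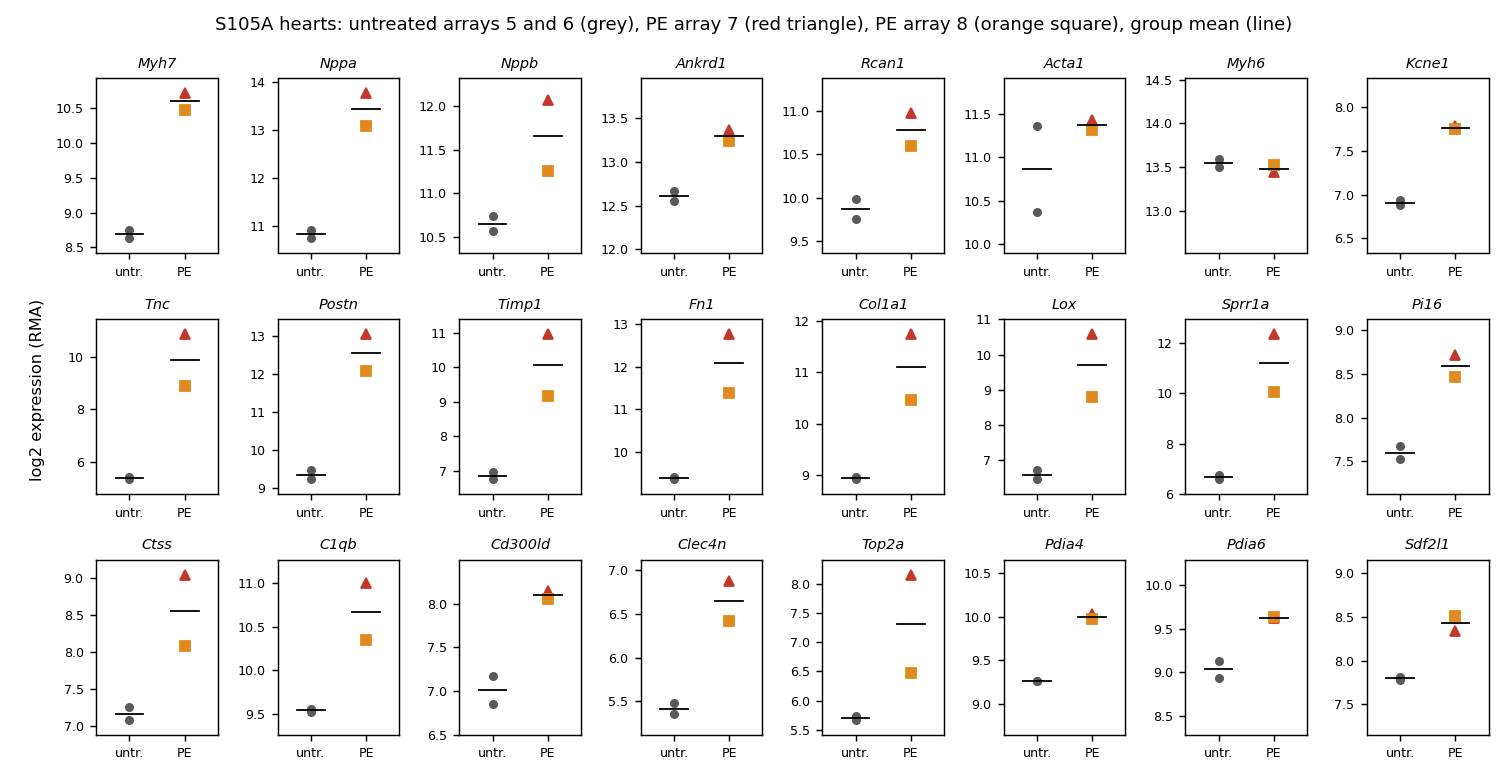
Log2 expression of 24 genes in the S105A hearts, with untreated arrays 5 and 6 as grey dots, PE array 7 as a red triangle, PE array 8 as an orange square and the group mean as a line; each panel has its own axis, which does not start at 0. For Tnc, Timp1, Col1a1 and Top2a array 7 lies far above array 8, whereas for Myh7, Kcne1, Cd300ld, Pdia4 and Pdia6 the PE arrays lie close together, and for Acta1 the groups overlap.

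Markers of fibroblasts and of macrophages were higher in the same hearts as the matrix genes. The fibroblast list shares Col1a1, Col1a2, Dcn, Lum, Postn, Mfap4 and Mfap5 with the matrix lists above. Its values are therefore not independent of theirs. Of 16 fibroblast markers, 13 lay higher without overlap (81.2%, against 20.2% of all genes), 1 lower and 2 overlapped, and their list mean was 8.99 in both untreated arrays, 10.32 in array 7 and 9.70 in array 8. Of 19 measured macrophage and monocyte markers, all lay higher without overlap (20.2% of all genes do). An unadjusted p under 0.05 was found for 15 of them (5.86% of all genes). The list mean of the 19 was 7.68 and 7.75 in the untreated arrays, 8.86 in array 7 and 8.27 in array 8. The part of cell numbers in the matrix differences was not tested, and in bulk tissue more cells of a type and more RNA per cell cannot be told apart.

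Among the fibroblast markers, Pi16, a peptidase inhibitor of resting fibroblasts, had one of the smallest unadjusted p (7.8e-05, limma adjusted p = 0.765). Its values were 7.53 and 7.67 against 8.72 and 8.47, a difference of 1.00 (SE 0.12). Ddr2, a collagen receptor, had 8.38 and 8.22 against 8.74 and 8.69, and Dpt, dermatopontin, 10.64 and 10.57 against 11.43 and 11.05. Pi16 and Ddr2 were nearly even, with differences of 1.12 and 0.44 in array 7 and 0.87 and 0.39 in array 8. Pdgfra, a receptor that defines resident fibroblasts, had a smaller difference of 0.43 (SE 0.13). Over the 16 fibroblast markers the differences ranged from -0.45 to 3.20, and 2 of the 16 were below 0.

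Among the macrophage genes, Itgb2, an integrin chain of leukocytes, had 6.87 and 7.04 against 8.04 and 7.49. Ctss, a lysosomal protease, had 7.25 and 7.08 against 9.04 and 8.08, and C1qb, a complement chain made by tissue macrophages, 9.52 and 9.56 against 11.00 and 10.35. The Fc receptor gene Fcgr1 had 5.96 and 6.13 against 7.07 and 6.58. Outside the lists, 3 myeloid genes were among those with the smallest p or the largest differences. Ms4a7 had 5.68 and 5.76 against 8.53 and 7.36, and the lectin receptor gene Clec4n 5.35 and 5.48 against 6.88 and 6.42. Cd300ld, an immune receptor gene, had 7.17 and 6.85 against 8.15 and 8.06 and was nearly equal in the PE arrays.

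The marker lists of other cell types had smaller median differences. Endothelial markers had a median difference of -0.17 in array 7 and 0.016 in array 8. Of these 14, 1 lay higher and 2 lower without overlap (7.14% and 14.3%, against 20.2% and 25.2% of all genes), and 11 overlapped. Smooth muscle and pericyte markers had medians of 0.16 in array 7 and 0.011 in array 8. Neutrophil, T and NK cell, B cell, mast cell, mesothelial, adipocyte, Schwann and skeletal muscle markers had median differences between -0.21 and -0.067 in array 7 and between -0.064 and 0.043 in array 8. Of their members, 0 were at least 1.5-fold higher in both arrays. Because 0.833% of all genes were, a count of 0 in lists this short says little. The list means of these 8 types stood between 5.10 and 6.89 in the 4 arrays. Atrial myocyte markers had a median of 0.077 in array 7 and 0.036 in array 8. Their members with an unadjusted p under 0.05 were Nppa and Myl4, the fetal and atrial myosin light chain gene, at 8.34 and 8.29 against 8.92 and 8.70.

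Secreted signals gave smaller and more mixed differences. Of 22 chemokine and cytokine genes, 8 lay higher and 2 lower without overlap (36.4% and 9.09%, against 20.2% and 25.2% of all genes), and 12 overlapped. Ccl9, a monocyte chemokine, had 7.52 and 7.73 against 8.48 and 8.15, and Cxcl10, an interferon-induced chemokine, 5.72 and 5.62 against 6.21 and 6.16. Il33, an alarm cytokine, had 5.88 and 5.63 against 7.02 and 6.16, and Csf1, the macrophage growth factor, 8.74 and 8.67 against 8.99 and 9.22. Csf1 was the member of these 4 that was higher in array 8 than in array 7. Of 12 acute phase and metal response genes, 7 lay higher without overlap (58.3%, against 20.2%). Mt2, a metallothionein, had the smallest p among them, at 9.86 and 10.28 against 11.50 and 10.74. Serpina3n, a serine protease inhibitor, had the largest difference, 1.68, at 8.74 and 8.65 against 11.12 and 9.64.

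Of 17 interferon response genes, 8 lay higher and 2 lower without overlap (47.1% and 11.8%, against 20.2% and 25.2% of all genes). The median of array 5 minus array 6 was -0.32 for this list, larger in size than its median PE difference of 0.26. Of 18 TGF-beta ligands, receptors and targets, 10 lay higher without overlap (55.6%), with a median difference of 0.28 in array 7 and 0.12 in array 8. Inhba, an activin subunit, had 6.52 and 6.39 against 7.59 and 7.12, and the signal transducer gene Smad3 7.95 and 7.79 against 8.21 and 8.13. Of 13 genes of the insulin-like growth factor system, 8 lay higher without overlap (61.5%). The binding protein gene Igfbp4 had 9.04 and 9.06 against 9.93 and 9.38, and Igfbp6 6.88 and 6.85 against 7.26 and 7.13.

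Of the 44 lists, the cell cycle genes had the widest gap between the PE arrays. Of 29 measured, 20 lay higher without overlap (69%, against 20.2% of all genes) and 10 had an unadjusted p under 0.05 (5.86% of all genes do), but the median difference was 1.30 in array 7 and 0.27 in array 8. Top2a, a topoisomerase of dividing cells, had 5.73 and 5.67 in the untreated arrays against 8.15 in array 7 and 6.47 in array 8. Ube2c, a ubiquitin-conjugating enzyme of mitotic exit, had 5.94 and 5.70 against 7.23 and 6.42. Tpx2, a spindle factor, had 5.40 and 5.38 against 6.64 and 5.86, and Kif11, a spindle motor, 5.51 and 5.56 against 7.33 and 6.13. All 4 were higher in both PE hearts, with array 8 nearer to the untreated level. Tyms, thymidylate synthase, differed by 0.0068 in array 8 against 1.18 in array 7.

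Genes that fold proteins for secretion in the endoplasmic reticulum had moderate differences, and the list medians were nearly equal in the PE arrays. When unfolded proteins build up there, the factors ATF6 and XBP1 switch on chaperones and disulfide isomerases, and ATF6 acts with NF-Y at a composite site called the ERSE. Of the 23 genes of this list, 17 lay higher and 2 lower without overlap (73.9% and 8.7%, against 20.2% and 25.2% of all genes), and 10 had an unadjusted p under 0.05, all of them higher (3.09% of all genes). The median difference was 0.34 in array 7 and 0.33 in array 8. In array 8 alone, 19 lay above both untreated arrays (34.8% of all genes do).

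Pdia4, a disulfide isomerase, had log2 values of 9.27 and 9.27 in the untreated arrays and 10.03 and 9.97 in the PE arrays. Pdia6, another isomerase, had 9.13 and 8.94 against 9.62 and 9.63. Sdf2l1, a component of a chaperone complex, had 7.82 and 7.78 against 8.34 and 8.52, and the co-chaperone gene Dnajb11 8.16 and 8.07 against 8.57 and 8.53. The PE arrays were close to each other in all 4 and the groups did not overlap, with differences between 0.43 and 0.73 (SE 0.12 to 0.23, limma adjusted p = 0.765). Calr, the lectin chaperone calreticulin, had 11.32 and 11.29 against 11.68 and 11.66. Hspa5, the main chaperone of the compartment, had 11.92 and 11.90 against 12.01 and 12.22. Ddit3, which encodes the stress factor CHOP, lay lower at 7.83 and 7.69 against 7.55 and 7.64.

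The promoter windows of Hspa5, Pdia6 and Calr are shown because each holds the composite site, spelled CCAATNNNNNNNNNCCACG and searched on both strands, in capitals. The Hspa5 window is chr2:34771840-34772089 (plus strand), the Pdia6 window chr12:17266339-17266588 (plus strand) and the Calr window chr8:84846932-84847181 (minus strand), all in GRCm38.p6.
Hspa5: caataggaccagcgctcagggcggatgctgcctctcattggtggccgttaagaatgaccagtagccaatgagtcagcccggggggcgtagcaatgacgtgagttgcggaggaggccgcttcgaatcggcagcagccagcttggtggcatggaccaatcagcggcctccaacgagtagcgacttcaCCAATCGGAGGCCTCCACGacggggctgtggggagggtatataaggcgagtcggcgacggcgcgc
Pdia6: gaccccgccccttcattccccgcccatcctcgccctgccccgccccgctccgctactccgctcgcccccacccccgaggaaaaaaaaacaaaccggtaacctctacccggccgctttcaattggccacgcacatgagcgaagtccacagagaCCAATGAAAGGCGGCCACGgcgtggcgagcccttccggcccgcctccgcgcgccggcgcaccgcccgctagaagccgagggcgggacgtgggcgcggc
Calr: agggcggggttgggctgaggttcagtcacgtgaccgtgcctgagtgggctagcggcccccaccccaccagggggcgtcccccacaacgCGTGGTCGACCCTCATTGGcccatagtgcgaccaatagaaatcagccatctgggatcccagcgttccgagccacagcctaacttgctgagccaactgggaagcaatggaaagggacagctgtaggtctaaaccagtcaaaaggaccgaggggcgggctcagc
The match starts at position -65 of Hspa5, -98 of Pdia6 and -162 of Calr, where it reads on the opposite strand. Only 37 of the 32851 windows hold these letters (0.113%), and 20 of the 15562 tested genes with a window (0.129%). In the folding list it was 7 of 21 (Hspa5, Hsp90b1, Pdia6, Calr, Canx, Dnajc3 and Creld2), and among the 126 genes at least 1.5-fold higher in both PE arrays it was 1. The windows of Pdia4, Sdf2l1 and Dnajb11, named above with Pdia6, held 0 matches. The median difference was 0.31 for the 7 members with the site and 0.34 for the 14 without it. Array 8 was the higher PE array in the first set, with medians of 0.19 in array 7 and 0.33 in array 8, and the lower one in the second, with 0.39 and 0.26.

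**Figure D3:**
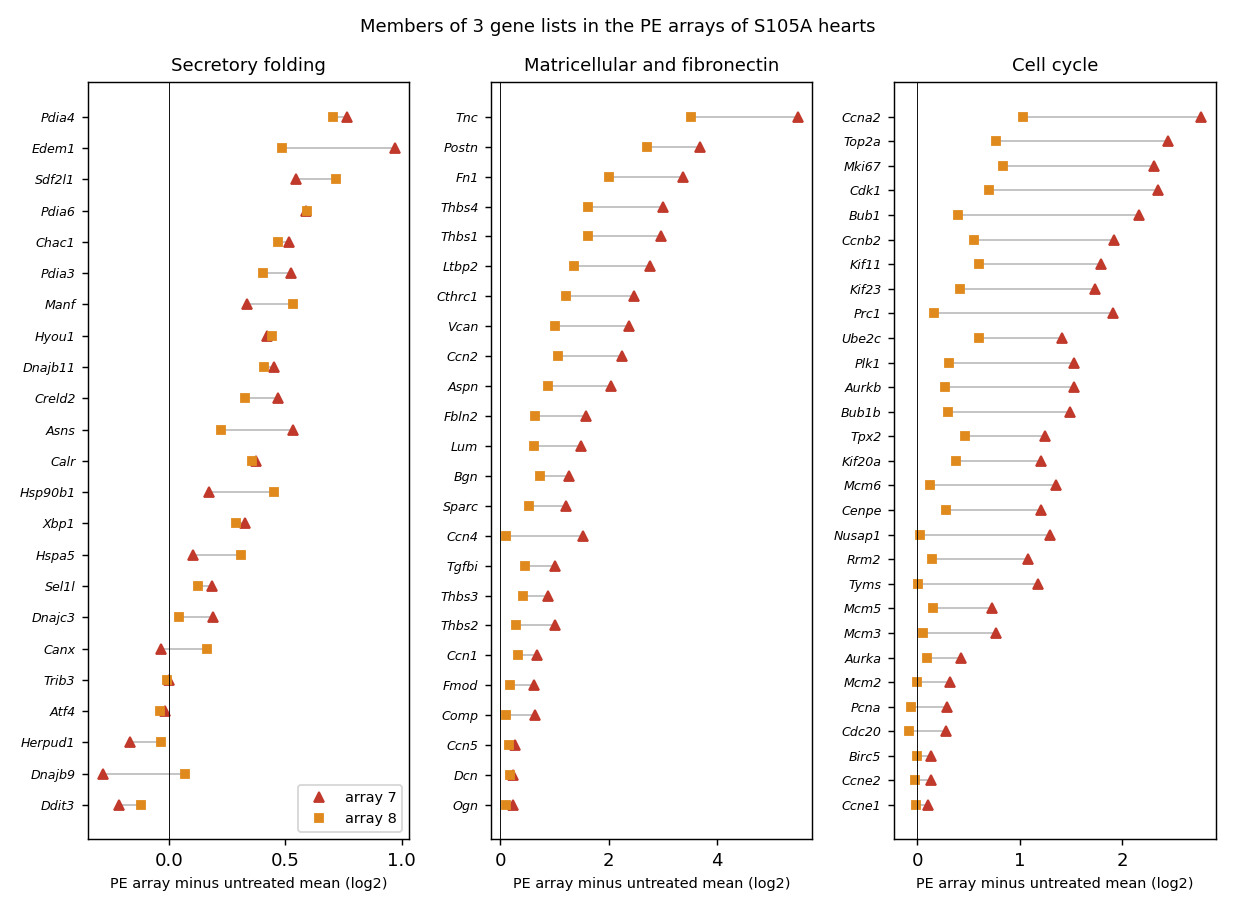
Members of 3 gene lists by their log2 difference from the untreated mean in PE array 7 (red triangle) and PE array 8 (orange square), ordered by the mean of both; the horizontal axes differ. In the secretory folding list the medians were 0.34 and 0.33, although members such as Hspa5 differed between arrays 7 and 8 (0.10 and 0.31). In the matricellular list (1.51 and 0.63) and the cell cycle list (1.30 and 0.27) array 7 lies to the right.

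Of 17 measured heat shock protein genes, 5 lay higher and 1 lower without overlap (29.4% and 5.88%, against 20.2% and 25.2% of all genes), and 11 overlapped. In array 8 alone, 12 lay above both untreated arrays and 4 below (34.8% and 35.1% of all genes do), and the median difference was -0.014 in array 7 and 0.12 in array 8. Hsp90aa1, the inducible form of the chaperone HSP90, had 10.37 in both untreated arrays against 10.86 and 11.14. Hspb1, a small heat shock protein, had 10.38 and 10.55 against 11.01 and 11.17. Hspa1a, the inducible HSP70 gene, had 7.59 and 7.50 against 7.90 and 9.00. All 3 were higher in array 8 than in array 7, the opposite of the matrix genes, and Hspa1a differed by 1.46 in array 8 and 0.36 in array 7.

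Some of the genes past 1.5-fold had similar differences in both PE hearts. Of the 166 genes at least 1.5-fold higher in both arrays, 14 had an array 8 difference of at least 0.8 times that in array 7. They were Efhd1, Mboat2, Pdia6, Nr4a1, Kcne1, Depp1, Pdia4, Cd300ld, Myh7, A530064D06Rik, Ankrd1, Spon2, Neto2 and Apod, and this set was singled out after its values were seen. Kcne1, a regulatory subunit of the slow potassium channel, had 6.94 and 6.88 against 7.78 and 7.75, a difference of 0.86 (SE 0.12, unadjusted p = 0.000173, limma adjusted p = 0.765). Nr4a1, an orphan nuclear receptor of the immediate early class, had 7.71 and 7.40 against 8.37 in both PE arrays. Spon2, a secreted matrix protein, had 6.37 and 6.19 against 7.20 and 7.02, and Apod, a lipocalin, 7.27 and 7.30 against 8.06 and 7.91. For Mboat2, array 5 minus array 6 was -1.02 (7.18 and 8.20 against 8.37 and 8.39).

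Genes of mitochondrial energy production lay lower in both PE hearts by small amounts. Of 42 measured genes of oxidative phosphorylation, 41 lay below both untreated arrays (25.2% of all genes do) and 1 overlapped. In array 8 alone, 41 lay below them (35.1% of all genes do). Their median difference was -0.30 in array 7 and -0.14 in array 8 and -0.0036 for array 5 minus array 6, and 0 had an unadjusted p under 0.05. Ndufa1, a complex I subunit, had the smallest p, at 10.32 and 10.52 against 9.79 and 9.91, a difference of -0.57 (SE 0.28, unadjusted p = 0.0837). Ndufb8, another subunit, had 11.71 and 11.75 against 11.24 and 11.42, and Ndufa5 10.54 and 10.60 against 9.72 and 10.20. Fibroblast and macrophage markers were higher in the same arrays, and their part in these differences was not tested. The cardiomyocyte marker list had a median difference of -0.029.

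Fatty acid uptake and oxidation genes were lower mainly in array 7. Of 29, 22 lay lower without overlap (75.9%, against 25.2% of all genes) and 7 overlapped, with median differences of -0.52 in array 7 and -0.092 in array 8. Acads, an acyl-CoA dehydrogenase, had 11.11 and 11.10 against 10.70 and 10.86, and Mlycd, malonyl-CoA decarboxylase, 9.26 and 9.38 against 8.58 and 9.12. Ucp3, a mitochondrial carrier protein, had one of the widest gaps between the PE arrays, at 8.29 and 8.93 against 7.06 in array 7 and 8.97 in array 8. Of 15 regulators of these pathways, 10 lay lower without overlap (66.7%) and 5 overlapped. Ppargc1b, a coactivator, had 9.12 and 8.95 against 8.77 and 8.65, and was lower in array 8. Ppara, a lipid-sensing nuclear receptor, had 9.54 and 9.38 against 8.88 and 9.35, and the coactivator gene Ppargc1a 10.69 and 10.64 against 10.20 and 10.46. Of 24 genes of glucose use, 14 overlapped, 3 lay higher and 7 lower (12.5% and 29.2%), and the median difference was -0.098 in array 7 and -0.018 in array 8. Their members were not of 1 direction: Hk2, a hexokinase, had 10.82 and 10.78 against 10.38 and 10.50, whereas Pfkp, a phosphofructokinase form, had 8.27 and 8.59 against 9.59 and 8.81.

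**Figure D4:**
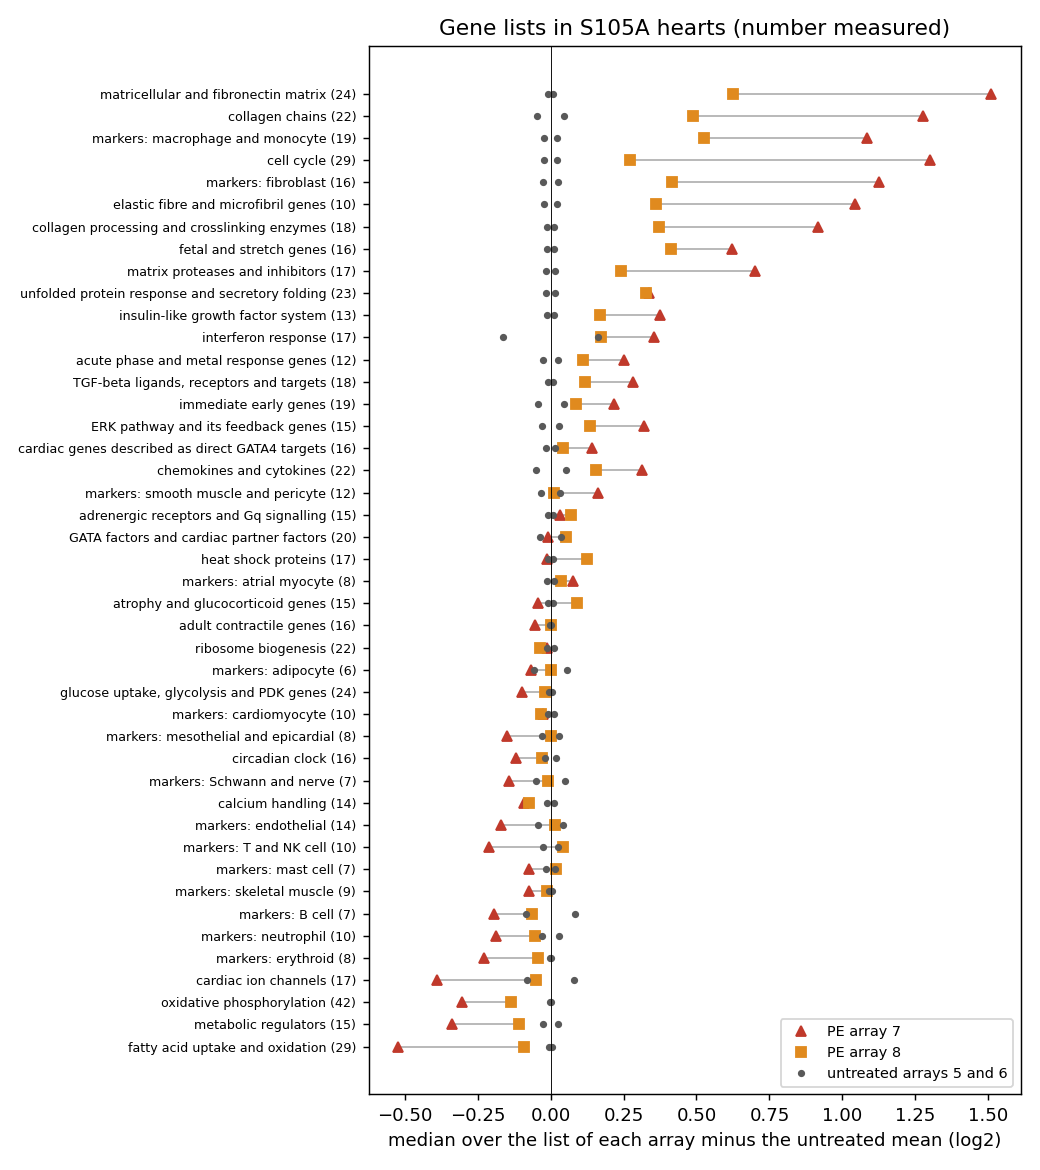
Median over each of the 44 gene lists of the log2 difference from the untreated mean, for PE array 7 (red triangle), PE array 8 (orange square) and untreated arrays 5 and 6 (dots), with the number of measured genes. The matricellular list is highest (1.51 and 0.63), the secretory folding list has both symbols at one place (0.34 and 0.33), and the fatty acid list is lowest in array 7 (-0.52) and near 0 in array 8 (-0.092).

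Contractile, calcium and ion channel genes of the adult heart had differences in both directions. Of 16 adult contractile genes, 4 lay higher, 5 lower and 7 overlapped, near the shares of all genes (25% and 31.2%, against 20.2% and 25.2%). The median difference was -0.055 in array 7 and -6.8e-05 in array 8. Mybpc3, the cardiac myosin-binding protein C gene, had 12.68 and 12.81 against 13.11 and 12.97, and Cmya5, a protein of the muscle costamere, 11.31 and 11.21 against 10.22 and 10.97. Of 14 calcium handling genes, 8 lay lower without overlap (57.1%, against 25.2%) and 6 overlapped, with median differences of -0.092 and -0.075. Cacnb2, a calcium channel subunit, had 6.37 and 6.44 against 6.06 and 6.04, a difference of -0.35 (SE 0.076) that was the same in both arrays. Jph2, which holds the membranes of the calcium release unit together, had 10.15 and 10.26 against 9.77 and 9.92. Atp2a2, the calcium pump of the sarcoplasmic reticulum, had 13.93 and 13.90 against 13.80 and 13.87, and its difference of -0.082 became 0.046 after a further quantile normalization. Of 17 ion channel genes, 7 lay lower and 2 higher without overlap (41.2% and 11.8%), with median differences of -0.39 in array 7 and -0.049 in array 8, and the largest difference downward was that of Kcnv2, a modifier of potassium channels, at 7.78 and 7.58 against 6.21 and 7.12.

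The genes of adrenergic receptors and Gq signalling had differences between -0.28 and 0.41. Of 15 measured, 5 lay higher and 2 lower without overlap (33.3% and 13.3%, against 20.2% and 25.2% of all genes) and 8 overlapped, with 0 at an unadjusted p under 0.05. Adra1b, an alpha receptor gene, overlapped at 8.29 and 8.07 against 7.68 and 8.28, and Adra1a was not analysed here. The protein kinase C gene Prkca had 8.49 and 8.63 against 8.94 and 8.89, and Grk5, a receptor kinase, 8.75 and 8.81 against 9.37 and 9.00. Of 15 genes of the ERK pathway and its feedback, 8 lay higher without overlap (53.3%, against 20.2%), with differences up to 0.97. While 5.86% of all genes had an unadjusted p under 0.05, 2 of the 15 did. These were Etv1, an ETS factor, at 7.88 and 7.91 against 8.28 and 8.36, and its relative Etv5 at 7.06 and 7.24 against 8.49 and 7.76. Dusp6, the ERK phosphatase, overlapped at 8.07 and 8.54 against 8.87 and 8.38.

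Of 19 immediate early genes, 10 lay higher and 1 lower without overlap (52.6% and 5.26%, against 20.2% and 25.2% of all genes). Atf3, a stress factor, had 7.06 and 6.95 against 7.64 and 7.35, and Myc, a growth factor-induced regulator, 7.10 and 7.41 against 8.29 and 7.65. Egr1 had 7.88 and 8.20 against 8.79 and 8.29, and Fos overlapped at 6.23 and 6.47 against 6.24 and 6.35. Of 20 GATA and partner factor genes, 13 overlapped, 5 lay higher (25%) and 2 lower (10%). Gata6, the other GATA factor of heart muscle, overlapped at 10.59 and 10.41 against 10.50 and 10.61. Mef2c had 9.11 and 9.07 against 9.26 and 9.31, a difference of 0.19 (SE 0.074). Of 16 measured genes described as direct GATA4 targets, 8 lay higher and 2 lower without overlap (50% and 12.5%, against 20.2% and 25.2%). The members with an unadjusted p under 0.05 (5.86% of all genes) were Myh7, Nppa, Nppb and Mef2c. The median difference of this list was 0.14 in array 7 and 0.044 in array 8.

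Lower genes were few, and 8 of the 15 at least 1.5-fold lower in both arrays had an array 8 difference of at least 0.8 times that in array 7. Retnla, a secreted protein of alternatively activated macrophages, had log2 values of 5.48 and 6.08 in the untreated arrays and 4.05 and 4.64 in the PE arrays. It lay below in both hearts although 19 of 19 macrophage markers lay above, with a difference of -1.44 (SE 0.35, limma adjusted p = 0.765). Its PE values are at the low end of the scale, where olfactory and vomeronasal receptor genes had a median level of 4.11. The untreated arrays also lay apart for this gene, which limits the contrast. Hnmt, histamine N-methyltransferase, had 7.21 and 7.13 against 6.13 and 6.00, and Fbxo44, an F-box protein, 7.32 and 7.18 against 6.21 and 5.91. The predicted gene Gm10635 had 6.34 and 6.20 against 5.26 and 5.23. Epha4, an ephrin receptor, had 9.14 and 9.06 against 7.80 and 8.34. Ces1d, a carboxylesterase, had 10.61 and 10.49 against 8.52 and 9.76, the lowest array 7 value relative to the untreated mean (-2.03).

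Several small RNA genes were among those lower in both PE arrays. Snora3, a small nucleolar RNA, had 9.37 and 9.82 against 8.58 and 8.71, a difference of -0.95 (SE 0.15, unadjusted p = 0.000459, limma adjusted p = 0.765). Snord85, of the same class, had 5.51 and 5.53 against 4.83 and 4.89. Rny1, a Y RNA, had 9.92 and 10.57 against 9.16 and 9.20, and Rnu12, a spliceosomal RNA, 7.79 and 7.70 against 7.23 and 7.08. Alas2, the erythroid enzyme of heme synthesis, had 8.17 and 8.27 against 7.45 and 7.63. Of the 8 measured erythroid markers, 3 lay lower and 1 higher without overlap (37.5% and 12.5%, against 25.2% and 20.2% of all genes), and the second with an unadjusted p under 0.05 was Tent5c, at 7.47 and 7.37 against 6.84 and 7.03. The remaining genes that the smallest p or the largest difference brought up were Lrp2bp, 9030612E09Rik, Ptprz1, Slc35f1, Lrrc52 and Abhd18, with differences between -0.85 and -0.54.

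The 6 genes with the widest gap between the PE hearts on the higher side were Serpinb1a, P4ha3, Sprr1a, Cilp, Tnc and Aldh1a2. Serpinb1a, a protease inhibitor, had 6.39 and 6.65 in the untreated arrays against 10.28 in array 7 and 7.69 in array 8. P4ha3, a collagen prolyl hydroxylase subunit, had 5.59 and 5.46 against 8.70 and 6.23, Cilp, a matrix protein of cartilage and heart, 6.55 and 6.99 against 9.88 and 7.83, and Aldh1a2, which makes retinoic acid, 6.35 and 6.66 against 9.07 and 7.15. These genes were still above both untreated arrays in array 8. The widest gaps on the lower side were different in kind, since Ucp3, Lgi1, Sun3 and Txnip were lower in array 7 and within or above the untreated range in array 8. Lgi1, a secreted leucine-rich protein, had 8.96 and 9.07 against 7.71 and 9.48, and Txnip, a glucose-responsive thioredoxin inhibitor, 11.66 and 11.94 against 10.94 and 12.34. Inmt and Penk were lower in both PE arrays, with -1.94 and -1.51 in array 7 and -0.31 and -0.25 in array 8.

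Whether PE acted differently in S105A than in WT hearts was tested as the difference of the PE effects, and 0 of 19938 genes passed an adjusted p of 0.05 in limma, with 483 (2.42%) at an unadjusted p under 0.05. No gene is called particular to S105A hearts on this basis, and each value that follows has a limma adjusted p of 1. The PE effect on Myh7 was 1.91 in S105A and 2.70 in WT hearts, a difference of -0.80 (unadjusted p = 0.0139). Rrad, a small GTPase of the stretch list, had PE differences of 0.12 in S105A and 0.84 in WT hearts (unadjusted p = 0.000706). Pi16 had 1.00 and 0.13 (unadjusted p = 0.00135) and Spon2 0.83 and -0.032 (unadjusted p = 0.00361). Alas2 had -0.69 in S105A and -1.92 in WT hearts. Snora3 had -0.95 and 0.081, and Snord85 -0.66 and 0.19. For the secretory folding list the median PE effect was 0.37 in S105A and 0.17 in WT hearts, a difference that was not tested.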

How the data were processed

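Biotin-labelled RNA of snap-frozen hearts from 8 mice, 2 in each of 4 groups, was hybridized to arrays (1 per animal), per the labels' protocols. The deposited log2 expression values came from RMA, per the submitters' processing notes. The RMA version and a genome build are not given in the sources used. Because RMA equalizes the arrays' distributions, a shift of most genes together would not show. No background levels were used, and low values lie near an unmeasured floor. Of 35557 probe sets, 21789 had 1 annotated symbol, 1621 had several and 12147 had no symbol. Genes were taken from the first kind, 999 of the 19938 having several probe sets.

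A limma model (version 3.58.1, R 4.3.3, lmFit, contrasts.fit and eBayes) used the 8 arrays and a mean for each group, with 4 residual and 2.74 prior degrees of freedom. P values are two-sided with Benjamini-Hochberg adjustment over all genes and a threshold of 0.05. The fit was tested on simulated data. Differences are PE minus untreated on the log2 scale, also for each PE array against the mean of arrays 5 and 6. "Without overlap" means that both PE arrays lay on one side of both untreated arrays. The labels name no batch.

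The 44 gene lists (765 entries, 704 measured) and the members were chosen with earlier results of these data known. Some lists share members, and 671 distinct genes were measured. The rule for named genes took, in each direction, up to 8 genes by unadjusted p with a difference of at least 0.5 and no overlap, since fewer than 5 passed the threshold. It added up to 10 per direction with the largest smaller difference of the PE arrays, up to 6 per direction with the widest gap between the PE arrays, up to 4 per list by p, further members of lists whose range is given, and a fixed set of heart genes. Promoter windows are RefSeq sequences of GRCm38.p6, matched by Entrez identifier.

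Alternatives were a filter on the lowest 40% of genes, array weights, a variance that is trended and robust, a further quantile normalization, averaging a gene's probe sets, testing all probe sets, a fit of the 4 S105A arrays, an unadjusted threshold with a fold, each PE array separately, and leaving out each array. The alternative without arrays 3 and 7 and the counts of genes past 1.5-fold in both arrays under other settings were added after seeing the data. Figures were drawn with matplotlib 3.10.9.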

Additional observations from a re-analysis of the deposited data

Results flagged for a closer look

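In 8 of the genes named, both S105A PE arrays lay on one side of their untreated mean and both WT PE arrays on the other side of theirs. The difference between the genotypes' PE effects is given for each on the log2 scale, S105A minus WT, and limma's test of it had an adjusted p of 1 throughout, so none passed. Depp1, an autophagy regulator that FOXO factors induce, had a difference of 1.36 (0.73 and 0.70 in the S105A arrays, -1.17 and -0.13 in the WT arrays). Snora3 had -1.03 and Snord85 -0.85, both small nucleolar RNAs that were lower with PE in S105A hearts and near or above the untreated level in WT hearts. Igfbp6 had 0.44, with 0.39 and 0.27 in the S105A arrays against -0.15 and -0.072 in the WT arrays.

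The other 4 rest on small values. Fos had a difference of -0.48, with an array 8 value of -0.00022. Tnni1 had -0.35, with 0.27 and 0.020 in the WT arrays. Gata6 had 0.26, with 0.0058 and 0.12 in the S105A arrays. Hspa5 had 0.25, with -0.0088 and -0.084 in the WT arrays. The direction of Fos and Gata6 in S105A hearts turns when untreated array 6 is left out.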

How the results depend on the processing

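The count of genes past an adjusted p of 0.05 was 0 with all arrays. It was 1 (Myh7) with array weights (limma adjusted p = 0.0354). Fits without a single array, or without arrays 3 and 7, leave 1 array in at least 1 group, so their counts by p value are not given. Without arrays 3 and 7 the differences rest on PE array 8 alone, such as 2.00 for Fn1, 1.53 for Col1a1 and 1.26 for Col3a1. With an unadjusted limit of 0.01 and a difference of 1.5-fold or more, the count with all arrays was 62. For the difference of PE effects between genotypes, the count past an adjusted p of 0.05 was 0 in every setting that kept all arrays. The count at an unadjusted p under 0.05 was 1971 with all probe sets tested, 2034 with array weights, 625 with the low-level filter and 2192 in a fit of the 4 S105A arrays, and lay between 379 and 2663 without a single array, lowest without array 7 and highest without array 3 or 4, where the gap between the WT PE arrays leaves the spread. It split into 616 higher and 553 lower genes, and into 436 and 189 with the filter. Genes past 1.5-fold in both PE arrays numbered 299 higher and 118 lower with all probe sets. Without untreated array 5 these genes numbered 157 higher and 31 lower, and without untreated array 6 they numbered 196 and 31. Leaving out a PE array leaves 1 PE array, so the count is then that of the remaining array alone. It was 187 higher and 30 lower without array 7, and 1107 higher and 247 lower without array 8. Of 130 named genes, 117 kept their direction in every setting run. This count is a description and no test of robustness. Many of these genes were named because their groups did not overlap, and such genes cannot turn when a single array is left out. Array weights, the trended and robust variance, the fit of the S105A arrays and leaving out a WT array do not change a gene's S105A difference. Without single arrays, Adra1b ranged from -0.51 to 0.099, Lgi1 from -1.30 to 0.46, Sun3 from -0.99 to 0.51, Txnip from -0.86 to 0.54 and Ucp3 from -1.56 to 0.35, each highest without array 7, with or without array 3. Sun3 also turned to 0.40 without array 5. Col4a3 ranged from -0.036 (without array 5) to 0.14, Sln from -0.070 to 0.0092 (without array 8), Fos from -0.18 to 0.065, Gata4 from -0.021 to 0.097, Gata6 from -0.026 to 0.15 and Myl7 from -0.23 to 0.050, these 4 turning without array 6. Myl7 turned to 0.044 without array 7 as well, and Col4a3 to -0.021 without array 8. With quantile normalization, Atp2a2 turned to 0.046, Myh6 to 0.005 and Sln to 0.014. The cause was not tested. The median over all genes stayed between -0.041 and -0.0021 in the settings run for it. No paired analysis was possible because the groups share no replicate numbers: the animals are numbered 1 to 8.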

Other observations

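Some patterns by kind and level of gene were looked at after their values were seen. Of 51 small nucleolar RNA genes, 19 lay lower in both PE arrays (37.3%, against 25.2% of all genes) and 3 higher (5.88%, against 20.2%). Their median difference was -0.055 in array 7 and -0.24 in array 8, the median of array 5 minus array 6 was -0.22, and the median PE difference in WT hearts was 0.083. Of 291 microRNA precursor genes, 69 lay lower and 25 higher without overlap (23.7% and 8.59%, against 25.2% and 20.2% of all genes), with a median difference of -0.030.

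Olfactory and vomeronasal receptor genes, which hearts are known to express little, served as a view of the low end of the scale. The 1194 genes had a median level of 4.11 and a median difference of -0.047, and 0 were past 1.5-fold in both PE arrays in either direction. Without overlap, 27.5% of them lay lower and 8.21% higher. These shares are close to those of the microRNA precursor genes, whose median level was 4.67. All genes were cut into 5 bins of equal size by mean level. Of the 166 genes at least 1.5-fold higher in both PE arrays, 0 were in the lowest bin, then 10, 34 and 62, and 60 in the highest. The 15 lower genes were spread as 1, 2, 4, 2 and 6.

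Depp1 had 7.70 and 8.13 in the untreated S105A arrays against 8.65 and 8.62 with PE, and Efhd1, a mitochondrial calcium-binding protein gene, 6.14 and 6.08 against 6.76 and 6.86. Both were among the few higher genes with similar differences in arrays 7 and 8.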
